A study of Caenorhabditis elegans with 10 samples.

Results

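Embryos carrying the lin-45 allele n2018 were compared with wild-type embryos of the N2 strain, both kept on 500 mM NaCl, across all genes. The comparison rests on 4 of the 10 RNA-seq libraries of the study, picked by their labels: 2 from N2 embryos on 500 mM NaCl and 2 from lin-45 embryos on 500 mM NaCl. The parents of all 4 had lived on 50 mM NaCl, and all embryos were taken 3 hours after egg preparation. A second pair of groups, N2 and lin-45 embryos on 50 mM NaCl with 2 libraries each, gave the same strain comparison without the salt load. The remaining group held 2 libraries of N2 embryos on 500 mM NaCl whose parents had lived on 300 mM, called preconditioned here. The labels name the allele but not its lesion, the other loci of the strain or its outcrossing, so differences caused by the allele and by linked or background loci cannot be told apart. They also do not say that replicates came from separate cultures, so p-values measure the spread between libraries, which may be technical.

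LIN-45 is the RAF kinase of Caenorhabditis elegans. In the RAS-ERK pathway an EGF-like ligand (LIN-3) acts on a receptor (LET-23), which turns on the small GTPase LET-60 RAS. RAS passes the signal through LIN-45 RAF and MEK-2 to the ERK kinase MPK-1, which alters transcription factors such as LIN-1. The pathway is best known for vulval induction and for germ cell progression in this worm. High NaCl draws water out of the embryo, and worm cells answer mainly by making and keeping glycerol, through the glycerol-3-phosphate dehydrogenases GPDH-1 and GPDH-2.

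The 4 libraries held 30707517 and 23611283 estimated gene counts for N2 and 32066595 and 29606281 for lin-45, within the range of 22138098 to 34585489 over all 10. Levels are given as CPM, counts per 1000000 counts of a library, scaled by the trimmed mean of M values, and differences as lin-45 over N2 on the log2 scale. Of 45461 genes in the table, 14802 passed the filter of 1 CPM in at least 2 libraries and were tested. Libraries of 1 strain on 500 mM lay 0.211 (N2) and 0.176 (lin-45) apart, as the root mean square difference of log2(CPM + 1) over genes, and libraries of different strains 0.359 to 0.38. Body wall muscle markers summed to 21068 to 22191 CPM in the N2 libraries and 22520.0 to 23837 CPM in the lin-45 libraries, while the yolk genes of adult intestine summed to 10.28 to 10.7 and 8.28 to 9.22 CPM. The sperm proteins, which mark male germ cells, summed to 84.99 to 87.8 and 82.0 to 82.8 CPM, with 8 of the listed genes at 0.

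On 500 mM NaCl the lin-45 embryos had 717 genes higher and 244 lower than N2 embryos at an adjusted p under 0.05 by edgeR's quasi-likelihood test, which is 4.84% and 1.65% of the genes tested. Of these 961 genes (6.49%), 311 were at least 2-fold higher and 47 at least 2-fold lower. The median difference over all genes was 0.0017 on the log2 scale, the median of the higher genes 0.92 and that of the lower genes -0.51. Among the genes with the highest differences were a chemoreceptor gene (srw-85), a cathepsin B-like protease gene (cpr-3) and cuticle collagen genes. The genes with the lowest differences lay in part in one stretch of chromosome V, and also held the nuclear hormone receptor gene nhr-12, the aldehyde dehydrogenase gene alh-2 and the phosphatase gene ppm-1. At an unadjusted p under 0.05 there were 3438 genes. With 2 libraries a group the smallest p an exact permutation test allows is 0.333, and the tests of single genes borrow the spread estimated over all genes.

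The number of calls depended on each of the 4 libraries. Without N2 500 mM replicate 1 there were 233 genes higher and 34 lower, and without N2 500 mM replicate 2 there were 209 and 31. Without lin-45 500 mM replicate 1 the counts were 232 and 20, and without lin-45 500 mM replicate 2 they were 353 and 37. In these fits 1 strain had a single library on 500 mM, assumed to vary like the other groups. The counts also moved when a library outside the comparison was left out: without N2 50 mM replicate 1 or 2 there were 537 higher and 108 lower or 534 and 108. The lower count was 475 and 469 without lin-45 50 mM replicate 1 and 2, with 700 and 698 higher. Leaving out preconditioned replicate 1 or 2 gave 1567 higher and 639 lower or 1569 and 637. A call is named firm below where it held in all 20 alternative settings.

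**Figure D1:**
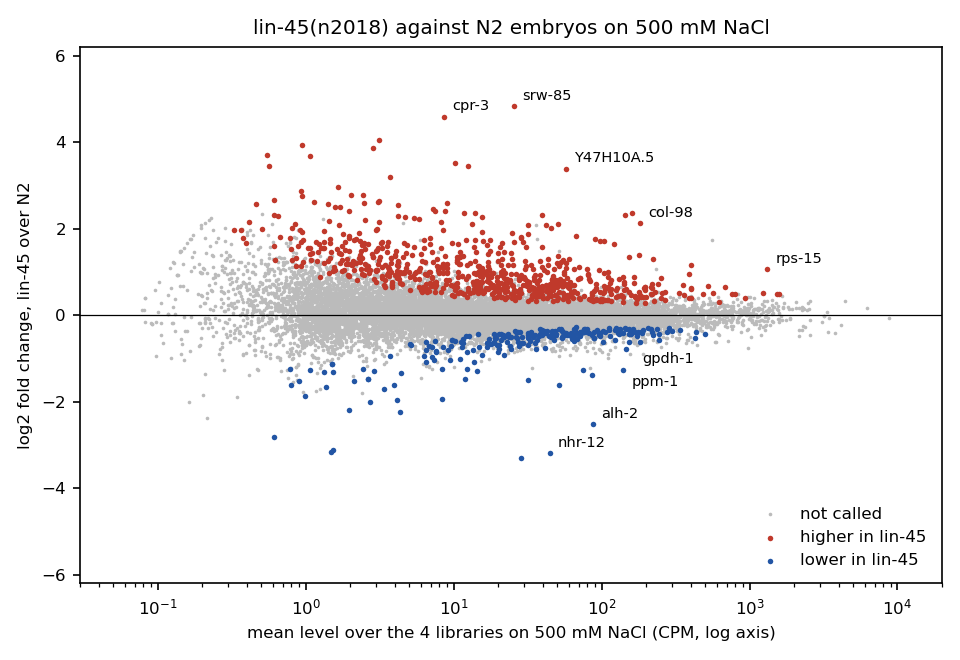
Difference between lin-45 and N2 embryos on 500 mM NaCl (vertical axis, log2 fold change) against the mean level of the 4 libraries (horizontal axis, CPM on a log scale), 1 point per gene tested. The 717 genes called higher and 244 called lower are coloured; the 99 genes with at most 3 counts in a group, 8 of them called, are left out because their fitted change has no reliable size.

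The lin-45 transcript itself stood at 88.6 and 83.0 CPM in the N2 libraries and 96.7 and 104.1 CPM in the lin-45 libraries on 500 mM NaCl. Both mutant libraries lay above both wild-type libraries, but the difference did not pass the test (log2 fold change 0.23 ± 0.09 SE, adjusted p = 0.17). It passed narrowly without preconditioned replicate 1 (adjusted p = 0.0459) and replicate 2 (adjusted p = 0.0464). On 50 mM NaCl it passed, with 93.0 and 94.97 CPM in N2 and 118 and 119.1 CPM in lin-45 (log2 fold change 0.33 ± 0.09 SE, adjusted p = 0.0123). The transcript level does not check an allele that leaves the RNA in place, and the files hold no reads in which to look for it.

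None of the 37 measured genes of the RAS-ERK pathway passed edgeR's test on 500 mM NaCl in the fit of all 10 libraries. That fit called 6.49% of all genes. Nor did any of the 37 pass with DESeq2, which called 1238 genes. Fitted on the 4 libraries compared alone, 1 of the 37 was higher and 5 were lower. Over all genes that fit called 1638 higher and 1259 lower. Among the pathway genes it called were lin-3 (adjusted p = 0.0267), eor-2 (adjusted p = 0.0339) and lin-10 (adjusted p = 0.0222). Those 3 genes also passed without the preconditioned group and without either of its replicates, at 0.0271 to 0.0384. At an unadjusted p under 0.05 there were 8 of the 37, 2 higher and 6 lower, beside 3438 of all 14802 genes tested. The list of ligands, receptors and adaptors held 13 of the 37, the core kinases and scaffolds 9, the negative regulators 8 and the nuclear effectors 7. Their median differences were -0.07, 0.03, -0.12 and -0.22. The ligand gene lin-3 stood at 18.02 and 16.4 CPM in the N2 libraries and 21.7 and 22.9 CPM in the lin-45 libraries (log2 fold change 0.37 ± 0.12 SE, adjusted p = 0.105). The RAS gene let-60 differed by -0.12 ± 0.08 SE (adjusted p = 0.376) and the ERK gene mpk-1 by 0.13 ± 0.10 SE (adjusted p = 0.452). The smallest adjusted p values belonged to eor-2, a nuclear effector (-0.28 ± 0.07 SE, adjusted p = 0.0605), and to lin-10, which helps place the receptor in epithelial cells (-0.27 ± 0.07 SE, adjusted p = 0.0615).

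The glycerol genes parted. gpdh-1, the salt-induced glycerol-3-phosphate dehydrogenase, stood at 187 and 180.0 CPM in the N2 libraries and 109 and 107 CPM in the lin-45 libraries. Both mutant libraries lay below both wild-type libraries, and the gene fell (log2 fold change -0.77 ± 0.15 SE, adjusted p = 0.0179). The call was lost without each of the 4 libraries, at an adjusted p of 0.0932 to 0.133. On 50 mM NaCl the order was the reverse, with 4.05 and 3.34 CPM in N2 and 13.2 and 9.62 CPM in lin-45 (log2 fold change 1.62 ± 0.18 SE, adjusted p = 0.000231), and the change of the strain difference with salt passed its own test (log2 -2.39 ± 0.23 SE, adjusted p = 0.00224). The gene overlaps gadr-6 on the other strand, and whether the counting used strand is not given in the sources used here. gpdh-2, its paralog, stood at 318 and 352 CPM in the N2 libraries and 363 and 332 CPM in the lin-45 libraries, with the groups overlapping (log2 fold change 0.05 ± 0.10 SE, adjusted p = 0.81). The preconditioned N2 libraries, whose embryos were on the same salt, held 73.4 and 91.3 CPM of gpdh-1.

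The glycerol-3-phosphate phosphatases release glycerol from its phosphate. Of their genes, pgph-2 (listed as F44E7.2) stood at 152 and 147 CPM in the N2 libraries and 206 and 188 CPM in the lin-45 libraries (adjusted p = 0.21) and pgph-3 (C53A3.2) at 318 and 277 CPM in the N2 libraries and 238 and 211 CPM in the lin-45 libraries (adjusted p = 0.278), with neither past the threshold. Fitted on the 4 libraries compared alone, both passed (0.00693 and 0.0164), and pgph-2 also passed without preconditioned replicate 1 (0.0472) or 2 (0.0474). Of 11 aquaporins, which pass water or glycerol across membranes, aqp-7 was higher (log2 fold change 0.47 ± 0.08 SE, adjusted p = 0.00922) and none was lower. Over all genes 4.84% were higher and 1.65% lower. The myo-inositol transporter gene hmit-1.2 stood at 116 and 122 CPM in the N2 libraries and 178 and 181 CPM in the lin-45 libraries, apart but short of the threshold (log2 fold change 0.59 ± 0.18 SE, adjusted p = 0.0954), and hmit-1.1 at 170.4 and 148 CPM in the N2 libraries and 198 and 213 CPM in the lin-45 libraries (log2 fold change 0.37 ± 0.11 SE, adjusted p = 0.0765). With DESeq2 both of these transporter genes passed (0.0171 for hmit-1.2 and 0.031 for hmit-1.1), as they did in the fit of the 4 libraries alone (0.000925 and 0.0174). tps-2, a trehalose-6-phosphate synthase gene, rose from 176 and 164 CPM to 222 and 234 CPM (log2 fold change 0.43 ± 0.07 SE, adjusted p = 0.0134). The calls of aqp-7 and tps-2 were lost without each of the 4 libraries, at 0.0531 to 0.125.

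None of the 8 measured osmotic response regulators passed the test with DESeq2 or with edgeR in the fit of all libraries, and 1 had an unadjusted p under 0.05. That edgeR fit called 6.49% of all genes. The gene osr-1 stood at 40.5 and 34.2 CPM in the N2 libraries and 21.3 and 22.5 CPM in the lin-45 libraries and osm-8, a mucin-like gene of the epidermis, at 35.3 and 30.4 CPM in the N2 libraries and 20.5 and 22.7 CPM in the lin-45 libraries; both groups lay apart, but neither difference passed (-0.77 ± 0.35 SE, adjusted p = 0.225, and -0.60 ± 0.37 SE, adjusted p = 0.365). Both passed in the fit of the 4 libraries compared alone (0.00189 and 0.00576), and without lin-45 50 mM replicate 1 (0.0141 and 0.0494) or 2 (0.0144 and 0.0497). The chloride channel gene clh-3 was higher in the fit of the 4 libraries alone and without the preconditioned libraries. Over all genes the fit of the 4 libraries alone called 1638 higher and 1259 lower. Of the desiccation-linked genes, lea-1, which codes for a late embryogenesis abundant protein, stood at 9732 and 8254 CPM in the N2 libraries and 9718 and 7575 CPM in the lin-45 libraries (log2 fold change -0.06 ± 0.23 SE, adjusted p = 0.913). The groups overlapped for lea-1.

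**Figure D2:**
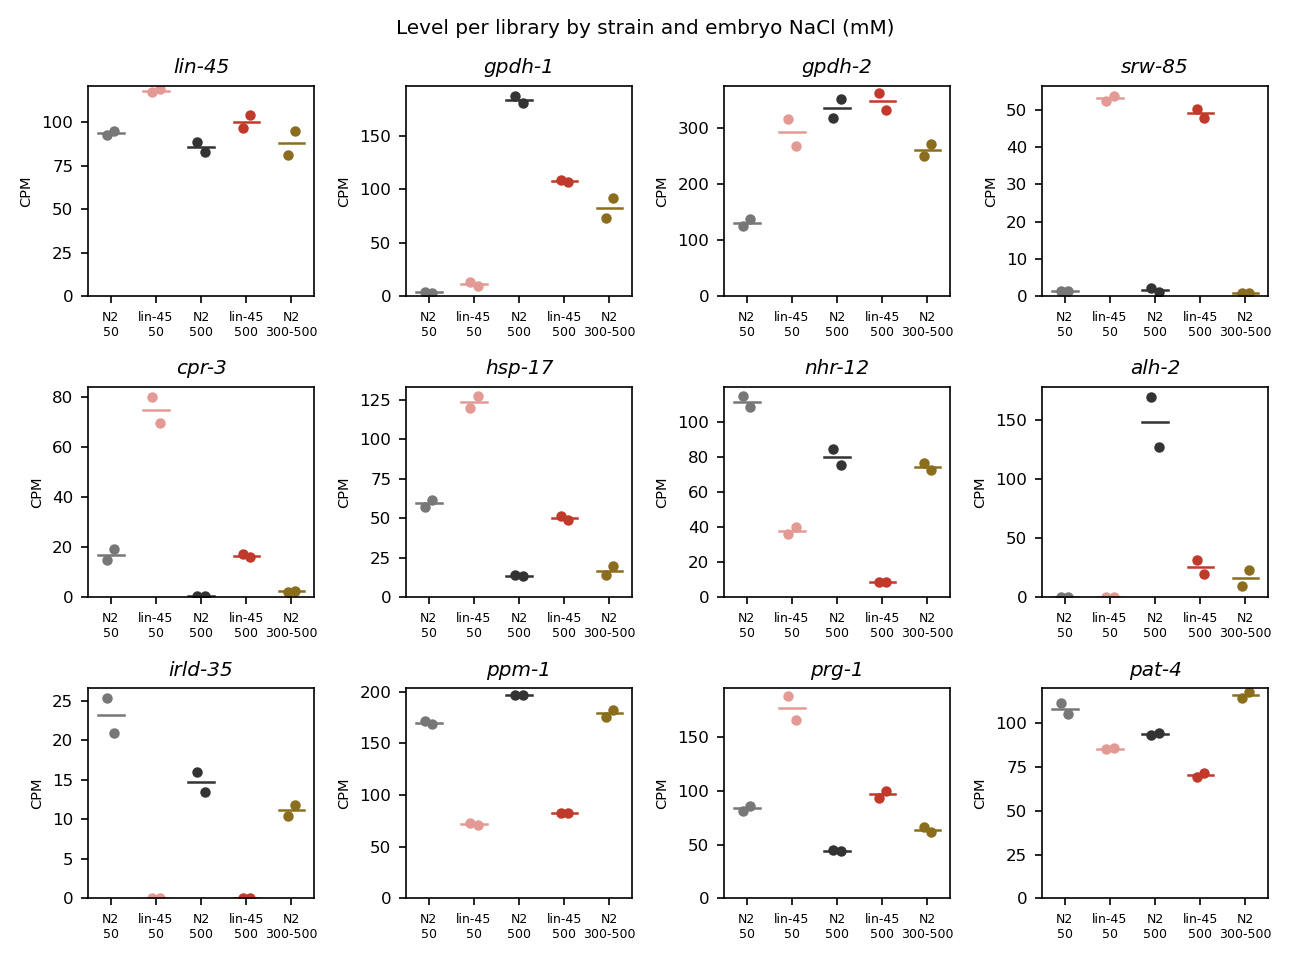
Level of 12 genes (vertical axes, CPM) in every library of the 5 groups (horizontal axis), with points for libraries and lines for group means. In every lin-45 library srw-85 stands higher and nhr-12, irld-35 and ppm-1 stand lower than in every N2 library, whereas gpdh-1 stands lower in lin-45 on 500 mM NaCl and higher on 50 mM.

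The largest rise of an abundant gene was that of srw-85, a serpentine receptor gene of the chemoreceptor type (chromosome V, 19429410 to 19431658, build ce10). It stood at 2.26 and 1.095 CPM in the N2 libraries and 50.3 and 47.8 CPM in the lin-45 libraries, and the groups lay far apart (log2 fold change 4.83 ± 0.23 SE, adjusted p = 2.12e-05). At 50 mM NaCl it stood at 1.498 and 1.31 CPM in N2 and 52.4 and 53.8 CPM in lin-45, close to its levels on 500 mM. cpr-3, a cathepsin B-like cysteine protease gene (chromosome V, 15296816 to 15298659), stood at 0.698 and 0.674 CPM in the N2 libraries and 17.3 and 15.98 CPM in the lin-45 libraries (log2 fold change 4.59 ± 0.19 SE, adjusted p = 1.88e-05). On 50 mM NaCl cpr-3 was more abundant in both strains, at 14.8 and 19.4 CPM in N2 and 80.1 and 69.5 CPM in lin-45, and its strain difference was smaller there (2.13 ± 0.14 SE; change with salt 2.46 ± 0.25 SE, adjusted p = 0.0024). Of the 5 measured genes of that protease family 2 were higher and none lower, beside 4.84% of all genes higher and 1.65% lower. The other of the 2 was cpr-4, at 8.61 and 9.90 CPM in the N2 libraries and 23.8 and 28.2 CPM in the lin-45 libraries (log2 fold change 1.49 ± 0.19 SE, adjusted p = 0.00258). All of these calls were firm.

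Genes of unknown product stood beside them. K08D8.4 stood at 1.43 and 1.85 CPM in the N2 libraries and 17.6 and 19.96 CPM in the lin-45 libraries (log2 fold change 3.52 ± 0.17 SE, adjusted p = 2.12e-05), B0024.4 at 2.23 and 1.94 CPM in the N2 libraries and 22.8 and 22.9 CPM in the lin-45 libraries (log2 fold change 3.45 ± 0.14 SE, adjusted p = 1.88e-05) and Y47H10A.5 at 10.5 and 9.396 CPM in the N2 libraries and 115 and 94.7 CPM in the lin-45 libraries (log2 fold change 3.39 ± 0.25 SE, adjusted p = 0.000169). The groups did not overlap for any of the 3. For K08D8.4 the strain difference on 50 mM NaCl was 0.79 ± 0.14 SE, and for Y47H10A.5 it was 3.28 ± 0.24 SE. Genes for proteins of the cell surface followed: the claudin-like genes clc-11 (listed as F44G3.10) and clc-19 (T24C4.4) rose by 2.45 ± 0.14 and 2.27 ± 0.19 SE, and the tetraspanin gene tsp-1 rose from 2.83 and 2.65 CPM to 15.7 and 13.7 CPM (log2 fold change 2.42 ± 0.15 SE, adjusted p = 7.85e-05). Its neighbour tsp-2, looked up after the values were seen, stood at 3.03 and 2.95 CPM in the N2 libraries and 14.4 and 12.29 CPM in the lin-45 libraries (log2 fold change 2.16 ± 0.17 SE, adjusted p = 0.0002). nas-9, an astacin-type metalloprotease gene, stood at 2.26 and 2.49 CPM in the N2 libraries and 13.7 and 11.7 CPM in the lin-45 libraries (log2 fold change 2.42 ± 0.21 SE, adjusted p = 0.000309), and irg-8 (ZK6.11), an infection response gene, at 3.59 and 4.09 CPM in the N2 libraries and 19.01 and 20.5 CPM in the lin-45 libraries (log2 fold change 2.37 ± 0.17 SE, adjusted p = 0.00015). Both salts gave a rise of clc-11, nas-9 and irg-8, by 1.195, 1.31 and 0.68 on 50 mM NaCl. The calls of all 9 of these genes were firm.

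Cuticle collagens, which the epidermis secretes to build the larval cuticle, made the largest group of higher genes beside the F-box genes: 21 of 103 measured col genes rose and 3 fell, with a median difference of 0.23 against 0.0017 over all genes. The shares over all genes were 4.84% higher and 1.65% lower. col-103 stood at 47.8 and 47.9 CPM in the N2 libraries and 247 and 233 CPM in the lin-45 libraries (log2 fold change 2.33 ± 0.18 SE, adjusted p = 0.000224) and col-42 (Y69H2.14) at 59.2 and 46.5 CPM in the N2 libraries and 283 and 257 CPM in the lin-45 libraries (log2 fold change 2.35 ± 0.20 SE, adjusted p = 0.0003). col-98 stood at 71.8 and 63.8 CPM in the N2 libraries and 317 and 276 CPM in the lin-45 libraries (log2 fold change 2.13 ± 0.18 SE, adjusted p = 0.000309), and col-147 at 32.2 and 26.7 CPM in the N2 libraries and 100.4 and 109 CPM in the lin-45 libraries (log2 fold change 1.83 ± 0.15 SE, adjusted p = 0.0003). In all 4 genes both mutant libraries lay above both wild-type libraries, and the calls were firm. Without N2 500 mM replicate 1, N2 500 mM replicate 2, lin-45 500 mM replicate 1 and lin-45 500 mM replicate 2, in this order here and below, 10, 9, 9 and 11 col genes were higher and none was lower. The annular furrow collagens, which shape the cuticle's rings, had none of 5 called and 1 at an unadjusted p under 0.05, dpy-7 at 316 and 353 CPM in the N2 libraries and 221 and 209 CPM in the lin-45 libraries (log2 fold change -0.64 ± 0.18 SE, adjusted p = 0.0727), which DESeq2 called. Fitted on the 4 libraries compared alone, 4 of these 5 furrow collagens were lower, in a fit that called 1259 genes lower over all genes. dpy-5, a body-shape collagen gene, fell from 19.95 and 15.3 CPM to 6.62 and 6.08 CPM (log2 fold change -1.47 ± 0.33 SE, adjusted p = 0.0342); its call was lost without each of the 4 libraries, at 0.118 to 0.196.

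Other lists of the epidermis and its apical matrix given here had 3.12% to 6.82% of their members called, beside 6.49% of all genes. Of 15 genes of the embryonic sheath and precuticle, lpr-1, a lipocalin-related gene, was lower (log2 fold change -0.79 ± 0.17 SE, adjusted p = 0.0301), and of 32 cuticlin genes only cutl-9 was called, lower (log2 fold change -0.45 ± 0.09 SE, adjusted p = 0.028). Of 44 hedgehog-related genes 3 were higher and none lower, led by grl-21 (log2 fold change 0.86 ± 0.11 SE, adjusted p = 0.00315). The same list had 4 higher and 35 lower on 50 mM NaCl, where 33.2% of all genes tested were higher and 21.1% lower. nhr-23, a nuclear receptor gene of molting and the epidermis, stood at 73.2 and 75.1 CPM in the N2 libraries and 54.6 and 52.7 CPM in the lin-45 libraries (log2 fold change -0.47 ± 0.12 SE, adjusted p = 0.0494) and was the only one of 16 epidermal markers called. The markers' summed level was 6559 to 6569.8 CPM in the N2 libraries and 5904 to 5992 CPM in the lin-45 libraries; in bulk RNA fewer cells of a type and less RNA per cell cannot be told apart. The calls of lpr-1, cutl-9 and nhr-23 were lost without each of the 4 libraries, at 0.0782 to 0.227, and that of grl-21 was firm.

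**Figure D3:**
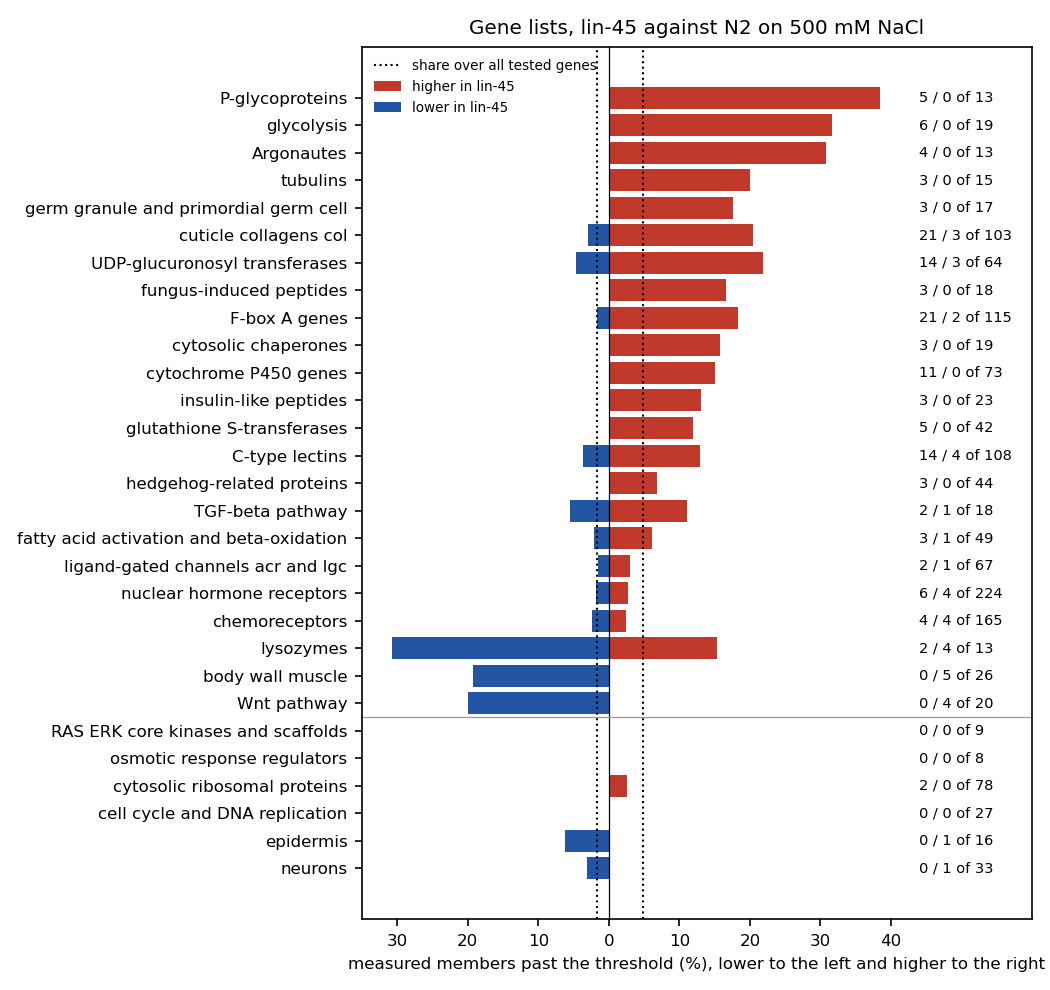
Share of measured members called higher or lower in lin-45 on 500 mM NaCl (horizontal axis, percent) for the 23 lists with at least 3 called members and, under the line, 6 further lists. Dotted lines mark the shares over all genes, 4.84% higher and 1.65% lower; the drug-handling, collagen, glycolysis and Argonaute lists are among those beyond the first, and the lysozyme, muscle and Wnt lists among those beyond the second.

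Genes that handle foreign and lipid-like compounds were called higher more often than the 4.84% of all genes. Of 73 cytochrome P450 genes, whose enzymes oxidise such compounds, 11 rose and none fell (median difference 0.38). cyp-33C8 stood at 10.1 and 10.32 CPM in the N2 libraries and 32.04 and 32.6 CPM in the lin-45 libraries (log2 fold change 1.66 ± 0.09 SE, adjusted p = 3.25e-05), with the groups well apart. cyp-14A4, cyp-25A3 and cyp-14A5 rose by 2.76 ± 0.33, 0.93 ± 0.12 and 0.87 ± 0.10 SE. Without the 4 libraries in turn, 5, 4, 4 and 5 P450 genes were higher. Of 64 UDP-glucuronosyl transferase genes, which attach a sugar to such compounds, 14 rose and 3 fell (median 0.17). ugt-18 stood at 34.8 and 29.3 CPM in the N2 libraries and 69.9 and 72.1 CPM in the lin-45 libraries (log2 fold change 1.15 ± 0.12 SE, adjusted p = 0.00109). ugt-33 went the other way, from 5.62 and 4.72 CPM to 1.58 and 1.59 CPM (log2 fold change -1.71 ± 0.16 SE, adjusted p = 0.000567), although it was higher in the mutant on 50 mM NaCl (log2 fold change 0.75 ± 0.13 SE, adjusted p = 0.00126). The transferases called without each library in turn were 7, 5, 8 and 7 higher and 1, 1, 1 and 1 lower. Every gene named in this paragraph held its call in all alternatives.

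Of 42 glutathione S-transferase genes 5 rose and none fell (median 0.16), beside 4.84% of all genes higher and 1.65% lower. Among the 5, gst-22 stood at 3.46 and 3.24 CPM in the N2 libraries and 11.1 and 9.83 CPM in the lin-45 libraries (log2 fold change 1.64 ± 0.16 SE, adjusted p = 0.000705). Left-out libraries gave 2, 1, 1 and 4 transferases higher. The P-glycoproteins pump such compounds out of cells, and 5 of 13 measured genes rose, none fell, and the median was 0.73. pgp-5 stood at 12.603 and 11.7 CPM in the N2 libraries and 36.9 and 41.5 CPM in the lin-45 libraries (log2 fold change 1.69 ± 0.11 SE, adjusted p = 0.000107), and pgp-3, which is active in the intestine, rose by 1.01 ± 0.12 SE (adjusted p = 0.00172). Both calls were firm, and 3, 3, 4 and 2 P-glycoprotein genes were higher without each library in turn.

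Genes of immune defence moved in both directions, beside 4.84% of all genes higher and 1.65% lower. Of 108 C-type lectin genes, whose products bind sugars and many of which answer to infection, 14 rose and 4 fell (median 0.17). clec-67 stood at 13.2 and 11.2 CPM in the N2 libraries and 30.1 and 29.9 CPM in the lin-45 libraries (log2 fold change 1.298 ± 0.13 SE, adjusted p = 0.000716). clec-41 rose by 0.98 ± 0.11 SE (adjusted p = 0.00142) on 500 mM NaCl and differed by 0.06 ± 0.10 SE (adjusted p = 0.641) on 50 mM. Without each library in turn, 6, 5, 6 and 7 lectin genes were higher and 1, 1, 1 and 2 lower. Of 13 lysozyme genes, which code for enzymes that cut bacterial walls, 2 rose and 4 fell (median -0.65). lys-2 rose by 1.23 ± 0.14 SE (adjusted p = 0.00156) and lys-1 rose from 37.2 and 36.0 CPM to 59.0 and 65.1 CPM (log2 fold change 0.76 ± 0.11 SE, adjusted p = 0.00467). The gene ilys-6 stood at 77.4 and 77.1 CPM in the N2 libraries and 28.9 and 21.3 CPM in the lin-45 libraries, the groups apart (log2 fold change -1.62 ± 0.34 SE, adjusted p = 0.0257), and lys-4 at 15.9 and 15.9 CPM in the N2 libraries and 8.05 and 9.66 CPM in the lin-45 libraries (log2 fold change -0.84 ± 0.15 SE, adjusted p = 0.0156). The call of ilys-6 was lost without each of the 4 libraries, at 0.132 to 0.178, that of lys-1 without N2 500 mM replicate 2 (adjusted p = 0.0577), and that of lys-4 without N2 500 mM replicates 1 and 2 and lin-45 500 mM replicate 1 (0.0872, 0.0959 and 0.144). The lysozymes called lower without each library in turn numbered 1, 1, 0 and 2, and the median of the list was -0.11 without N2 500 mM replicate 1. Of the antimicrobial peptides of the epidermis, nlp-27 rose from 10.9 and 11.5 CPM to 23.6 and 21.6 CPM (log2 fold change 1.02 ± 0.13 SE, adjusted p = 0.0034), a firm call, as the only one of 10 called.

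The F-box A genes, whose proteins are thought to bring targets to ubiquitin ligases, had 21 of 115 measured members higher and 2 lower (median 0.34). The shares over all genes were 4.84% and 1.65%. fbxa-60 stood at 14.6 and 11.59 CPM in the N2 libraries and 33.9 and 36.8 CPM in the lin-45 libraries (log2 fold change 1.43 ± 0.17 SE, adjusted p = 0.00187), and fbxa-74 rose by 2.78 ± 0.33 SE (adjusted p = 0.00214). fbxa-192 fell by 1.62 ± 0.20 SE (adjusted p = 0.00229). These 3 calls were firm. Without each library in turn, 4, 5, 6 and 11 F-box A genes were higher and 2, 2, 2 and 2 lower. The family holds many near-identical copies, so reads may be split between members.

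Argonaute genes, whose proteins carry small RNAs, had 4 of 13 measured members higher, beside 4.84% of all genes, and none lower (median 0.36). prg-1, the Piwi protein gene that carries piRNAs in the germ line, stood at 44.5 and 44.2 CPM in the N2 libraries and 93.4 and 99.95 CPM in the lin-45 libraries (log2 fold change 1.12 ± 0.09 SE, adjusted p = 0.00021). ppw-1, an Argonaute gene of germline RNA interference, stood at 45.6 and 37.6 CPM in the N2 libraries and 90.2 and 84.9 CPM in the lin-45 libraries (log2 fold change 1.07 ± 0.12 SE, adjusted p = 0.00134), and csr-1, whose protein carries small RNAs made against germline transcripts, at 10.7 and 10.2 CPM in the N2 libraries and 20.4 and 18.8 CPM in the lin-45 libraries (log2 fold change 0.91 ± 0.10 SE, adjusted p = 0.0018). sago-2 stood at 6.98 and 5.27 CPM in the N2 libraries and 15.2 and 16.1 CPM in the lin-45 libraries (log2 fold change 1.35 ± 0.19 SE, adjusted p = 0.00448). Both mutant libraries lay above both wild-type libraries in all 4. The calls of prg-1, ppw-1 and csr-1 were firm, and that of sago-2 was lost without N2 500 mM replicate 2 (adjusted p = 0.0501), which left 3 Argonaute genes called. The summed level of germ granule and primordial germ cell markers was 402 to 426 CPM in N2 and 454 to 464 CPM in lin-45, with 3 of 17 measured members higher and none without any 1 of the 4 libraries. The maternal RNA regulators and eggshell genes summed to 357 to 378 and 418 to 465 CPM (median difference 0.35, 1 of 22 called). The part of germ cell number and of embryonic age in the Argonaute values was not tested.

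Genes of primary metabolism were higher by smaller amounts. Of 19 glycolysis genes 6 rose, beside 4.84% of all genes, and none fell (median 0.27). enol-1, the enolase gene, stood at 309.9 and 317 CPM in the N2 libraries and 466 and 503 CPM in the lin-45 libraries (log2 fold change 0.63 ± 0.08 SE, adjusted p = 0.00346), a firm call. ipgm-1 (F57B10.3), the phosphoglycerate mutase gene, stood at 303 and 304 CPM in the N2 libraries and 419 and 419.9 CPM in the lin-45 libraries (log2 fold change 0.47 ± 0.06 SE, adjusted p = 0.00451). gpd-2 and gpd-3, near-identical genes for glyceraldehyde-3-phosphate dehydrogenase between which reads may be split, rose by 0.51 ± 0.08 and 0.39 ± 0.08 SE. Without each library in turn, 1, 1, 1 and 3 glycolysis genes were called, enol-1 always among them. The call of gpd-3 was lost in all 4 of these fits, at 0.112 to 0.154. Those of ipgm-1 and gpd-2 were lost without either N2 500 mM replicate and without lin-45 500 mM replicate 1, at 0.0517, 0.0535 and 0.0529 for ipgm-1 and 0.054, 0.0768 and 0.0754 for gpd-2. Of 27 genes of the respiratory chain 1 rose and none fell.

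Of 8 fatty acid elongase genes 2 rose, with firm calls, and none fell, beside 4.84% of all genes higher and 1.65% lower. elo-5, which takes part in making branched-chain fatty acids, stood at 2.33 and 3.54 CPM in the N2 libraries and 9.16 and 10.34 CPM in the lin-45 libraries (log2 fold change 1.75 ± 0.21 SE, adjusted p = 0.00192). elo-1, which lengthens polyunsaturated fatty acids, stood at 50.3 and 52.8 CPM in the N2 libraries and 111.99 and 103 CPM in the lin-45 libraries (log2 fold change 1.06 ± 0.13 SE, adjusted p = 0.003). fat-2, a desaturase gene, rose from 84.9 and 75.6 CPM to 129.7 and 125 CPM (log2 fold change 0.67 ± 0.12 SE, adjusted p = 0.0124). let-767, a gene of lipid and steroid metabolism, fell from 80.0 and 75.9 CPM to 55.96 and 51.3 CPM (log2 fold change -0.54 ± 0.09 SE, adjusted p = 0.0127), while on 50 mM NaCl it was higher in the mutant (log2 fold change 1.24 ± 0.10 SE, adjusted p = 7.87e-05). The calls of fat-2 and let-767 on 500 mM were lost without each of the 4 libraries, at 0.0501 to 0.128.

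Protein synthesis and folding lists differed in how many members lay above 0, called or not. These were 69 of 78 cytosolic ribosomal protein genes, 18 of 19 cytosolic chaperone genes and 11 of 15 small heat shock protein genes. Of mitochondrial ribosomal protein genes 9 of 45 lay above 0, and of endoplasmic reticulum unfolded protein response genes 7 of 19. Of the 78 cytosolic ribosomal protein genes 2 were called higher, which is a smaller share than the 4.84% of all genes. rps-15, a small-subunit protein gene, stood at 868 and 835 CPM in the N2 libraries and 1811 and 1750.0 CPM in the lin-45 libraries, against a median difference of 0.11 over the list (log2 fold change 1.06 ± 0.09 SE, adjusted p = 0.000309). hsp-17, a small heat shock protein gene, stood at 14.1 and 13.4 CPM in the N2 libraries and 51.7 and 48.8 CPM in the lin-45 libraries (log2 fold change 1.87 ± 0.14 SE, adjusted p = 0.000194). Both mutant groups lay clear of wild type in these genes, and both calls were firm. The other small heat shock protein called was hsp-12.1, at a difference of -0.76 ± 0.19 SE (adjusted p = 0.0481). Of the 19 cytosolic chaperone genes 3 were called higher, among them hsp-1, a constitutive HSP70, at 1010.0 and 1006 CPM in the N2 libraries and 1462 and 1433 CPM in the lin-45 libraries (log2 fold change 0.52 ± 0.08 SE, adjusted p = 0.00556). The number of chaperone genes called without each library in turn was 1, 0, 1 and 1. hsp-1 lost its call without N2 500 mM replicates 1 and 2 and lin-45 500 mM replicate 1, at 0.0562, 0.065 and 0.0652, and hsp-12.1 without each of the 4, at 0.125 to 0.258. gsr-1, the glutathione reductase gene, rose from 71.0 and 74.0 CPM to 109 and 111 CPM (log2 fold change 0.60 ± 0.12 SE, adjusted p = 0.0198), a call lost without each of the 4 libraries, at 0.118 to 0.15.

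The body wall muscle and Wnt lists had calls in the lower direction and none in the higher. Of 26 body wall muscle genes 5 fell and none rose, beside 1.65% of all genes. Among these 5 were genes for the integrin-bound complex at muscle attachment sites. pat-4, the integrin-linked kinase gene, stood at 93.5 and 94.3 CPM in the N2 libraries and 69.3 and 71.8 CPM in the lin-45 libraries (log2 fold change -0.41 ± 0.07 SE, adjusted p = 0.00901), pat-6, the parvin gene, at 184 and 179.6 CPM in the N2 libraries and 144 and 134 CPM in the lin-45 libraries (log2 fold change -0.38 ± 0.08 SE, adjusted p = 0.0307), and unc-97, the PINCH gene, at 171 and 169 CPM in the N2 libraries and 132 and 139.7 CPM in the lin-45 libraries (log2 fold change -0.32 ± 0.07 SE, adjusted p = 0.0377). Every mutant library lay below every wild-type library in these genes. unc-112, the kindlin gene of the same complex and also 1 of the 5, was looked up after these values were seen. It stood at 315 and 315 CPM in the N2 libraries and 248 and 265 CPM in the lin-45 libraries (log2 fold change -0.30 ± 0.07 SE, adjusted p = 0.0489). unc-120, a muscle transcription factor gene of the SRF type, stood at 61.4 and 59.2 CPM in the N2 libraries and 48.3 and 45.4 CPM in the lin-45 libraries (log2 fold change -0.36 ± 0.09 SE, adjusted p = 0.0432). The summed level of the muscle list was higher in lin-45 (22520.0 to 23837 CPM against 21068 to 22191 CPM), so the fall was not shared by the whole list, whose median difference was -0.11. Without any 1 of the 4 libraries none of the 26 list members passed the test, and pat-4, pat-6, unc-97, unc-120 and unc-112 stood at adjusted p of 0.0558 to 0.312.

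Of 20 Wnt pathway genes 4 fell, beside 1.65% of all genes, and none rose (median -0.21). The ligand gene cwn-2 stood at 82.6 and 85.2 CPM in the N2 libraries and 59.4 and 59.8 CPM in the lin-45 libraries (log2 fold change -0.49 ± 0.08 SE, adjusted p = 0.00922) and the ligand gene cwn-1 at 73.4 and 69.3 CPM in the N2 libraries and 52.001 and 55.5 CPM in the lin-45 libraries (log2 fold change -0.41 ± 0.09 SE, adjusted p = 0.0328). lit-1, the Nemo-like kinase gene, stood at 343 and 331 CPM in the N2 libraries and 251 and 271 CPM in the lin-45 libraries (log2 fold change -0.37 ± 0.09 SE, adjusted p = 0.0426), and lin-17, a Frizzled receptor gene, fell by 0.34 ± 0.08 SE (adjusted p = 0.0442). The libraries of the 2 strains did not overlap for the first 3 genes. None of the pathway's genes was called without any 1 of the 4 libraries, where these 4 stood at 0.0532 to 0.28.

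Insulin-like signalling, which sets growth and stress resistance, had 1 of 10 core genes higher, beside 4.84% of all genes. This was pdk-1, a kinase gene acting below the receptor, at 46.5 and 48.9 CPM in the N2 libraries and 62.6 and 61.7 CPM in the lin-45 libraries (log2 fold change 0.38 ± 0.07 SE, adjusted p = 0.0152). Of 23 insulin-like peptide genes 3 rose and none fell, led by ins-27 at 3.09 and 4.68 CPM in the N2 libraries and 9.09 and 8.92 CPM in the lin-45 libraries (log2 fold change 1.22 ± 0.22 SE, adjusted p = 0.0158). pdk-1 lost its call without each of the 4 libraries, at 0.0793 to 0.133, and ins-27 without N2 500 mM replicate 1 and either lin-45 500 mM replicate, at 0.107, 0.103 and 0.0718. Without each library in turn, 0, 1, 0 and 0 of these peptide genes were higher. Among 15 genes known as targets of the transcription factor DAF-16, 1 rose and none fell.

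Other tissue lists had 7.14% (pharynx), 11.1% (intestine) and 3.03% (neurons) of their members called, beside 6.49% of all genes. In the pharynx list myo-2, the pharyngeal myosin gene, rose from 1240.0 and 1303 CPM to 1824 and 1728 CPM (log2 fold change 0.48 ± 0.10 SE, adjusted p = 0.0268), 1 call among 14 genes. In the intestine list 2 of 18 genes rose and none fell, act-5, the microvillar actin gene, by 0.50 ± 0.09 SE (adjusted p = 0.0155) beside pgp-3. Among 33 neuronal genes unc-119 alone was called, at a difference of -0.39 ± 0.08 SE (adjusted p = 0.0204). These calls, pgp-3 apart, were lost without each of the 4 libraries, at 0.0503 to 0.19. Of the 78 lists, 21 had no call on 500 mM NaCl, 33 had calls only in the higher direction, 12 only in the lower direction and 12 in both. The 27 cell cycle and DNA replication genes were among those with none (median -0.05, 1 at an unadjusted p under 0.05). DESeq2 called cki-1 lower, and in the fit of the 4 libraries alone 3 were higher and 2 lower. Over all genes that fit called 1638 higher and 1259 lower. On 50 mM NaCl 14 of the 27 were higher and 2 lower (median 1.08), beside 33.2% higher and 21.1% lower over all genes there.

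The deepest falls were of genes with hardly a count in the mutant. irld-35, which codes for a protein of the insulin and EGF receptor L domain type, stood at 15.9 and 13.4 CPM in the N2 libraries and 0 and 0 CPM in the lin-45 libraries, at least 302-fold lower when 3 counts over the mutant group are taken as its limit. On 50 mM NaCl it was at least 386-fold lower by the same limit. F56A4.3 stood at 14.9 and 20.5 CPM in the N2 libraries and 0 and 0.0676 CPM in the lin-45 libraries; its count in the mutant was 0.00188 of that in N2 (95% exact interval 0.000227 to 0.00681, counting error only). srbc-15, a chemoreceptor gene, stood at 3.09 and 3.03 CPM in the N2 libraries and 0 and 0 CPM in the lin-45 libraries, at least 62.5-fold lower. These 3 were the genes with under 0.1 CPM in all 4 lin-45 libraries and at least 2 CPM in each N2 group, and no gene lacked counts in N2 the same way.

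All 3 lie on chromosome V within one stretch. Over all genes 1.65% were lower on 500 mM NaCl and 21.1% on 50 mM. A window was centred on irld-35 after its values were seen and holds these 3 genes, so its counts are descriptions and no test. Of the 42 genes tested within 150 kb of the start of irld-35, 11 were lower on 500 mM NaCl and none higher, and all 11 were lower on 50 mM too. They span 215.1 kb, from 2345674 to 2560738 on chromosome V (build ce10), and the stretch also holds clec-209, a C-type lectin gene, at 60.7 and 43.5 CPM in the N2 libraries and 5.58 and 4.93 CPM in the lin-45 libraries (log2 fold change -3.31 ± 0.25 SE, adjusted p = 0.000171). mct-1, a monocarboxylate transporter gene, stood at 50.6 and 43.7 CPM in the N2 libraries and 16.1 and 17.2 CPM in the lin-45 libraries (log2 fold change -1.502 ± 0.11 SE, adjusted p = 0.000177) and C13B7.6 at 20.5 and 20.1 CPM in the N2 libraries and 8.71 and 7.97 CPM in the lin-45 libraries (log2 fold change -1.28 ± 0.10 SE, adjusted p = 0.000198). The groups lay apart in all of them. F56A4.4 and Y45G12C.3 hold identical counts, as do str-267 and str-154, so each pair is 1 measurement and the 11 genes are 9 measurements. The copies Y45G12C.3 and str-154 set the far end; without them the 9 run over 112.6 kb, from 2345674 to 2458285. Of the 42 genes 18 were lower and 9 higher on 50 mM NaCl. The calls of irld-35, F56A4.3, srbc-15, clec-209, mct-1 and C13B7.6 were firm. Whether the strain carries other DNA in this stretch was not tested.

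**Figure D4:**
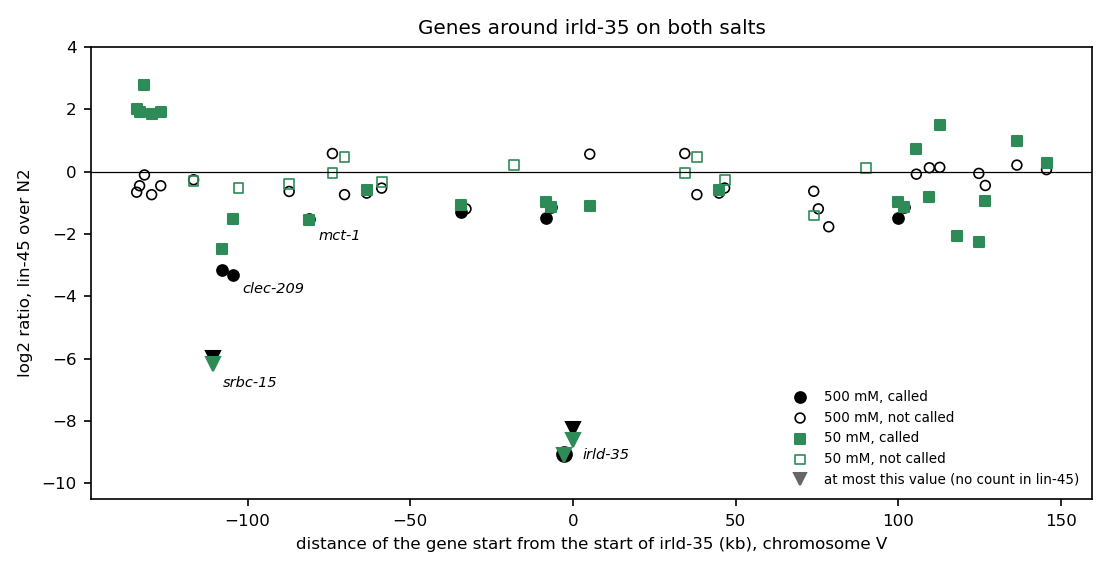
Difference between lin-45 and N2 on 500 mM and 50 mM NaCl (vertical axis, log2 fold change) for the genes tested within 150 kb of irld-35, by distance from its start (horizontal axis, kb). Triangles are bounds for genes with no count in the mutant; on 500 mM the 11 called genes all lie below 0.

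nhr-12, a nuclear hormone receptor gene (chromosome V, 10082115 to 10084018), stood at 84.7 and 75.6 CPM in the N2 libraries and 8.94 and 8.55 CPM in the lin-45 libraries, with the groups far apart (log2 fold change -3.196 ± 0.10 SE, adjusted p = 3.08e-06). It was lower on 50 mM NaCl as well, with 114 and 108 CPM in N2 and 36.3 and 39.7 CPM in lin-45, but by less (change with salt -1.65 ± 0.13 SE, adjusted p = 0.0014). The preconditioned N2 embryos held 76.4 and 72.4 CPM. Its neighbours R04B5.6, looked up after the values were seen, and R04B5.5 fell with it on 500 mM NaCl, from 6.62 and 6.62 CPM to 1.68 and 1.69 CPM (log2 fold change -1.97 ± 0.20 SE, adjusted p = 0.000971) and from 10.6 and 12.9 CPM to 5.07 and 4.86 CPM (log2 fold change -1.23 ± 0.13 SE, adjusted p = 0.00118). On 50 mM NaCl R04B5.6 was higher in the mutant (log2 fold change 0.85 ± 0.17 SE, adjusted p = 0.00296) and R04B5.5 differed by 0.06 ± 0.13 SE (adjusted p = 0.708). The 3 genes span 6.861 kb and were the only ones lower among 69 tested within 150 kb of nhr-12, where 3 others were higher. Over all genes 1.65% were lower and 4.84% higher. This window too was centred on a gene picked by its values, so its counts are descriptions. The calls of nhr-12, R04B5.6 and R04B5.5 were firm.

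Of the other lower genes, ppm-1, a protein phosphatase gene of the PP2C type, stood at 196 and 197 CPM in the N2 libraries and 82.3 and 82.2 CPM in the lin-45 libraries (log2 fold change -1.26 ± 0.06 SE, adjusted p = 3.17e-05). Its libraries of a strain hardly differed, and on 50 mM NaCl it stood at 171 and 169 CPM in N2 and 72.7 and 70.8 CPM in lin-45. alh-2, an aldehyde dehydrogenase gene, stood at 169 and 128 CPM in the N2 libraries and 31.8 and 20.03 CPM in the lin-45 libraries (log2 fold change -2.52 ± 0.39 SE, adjusted p = 0.00762). At 50 mM NaCl alh-2 had 5 counts in the N2 libraries and 2 in the lin-45 libraries, and the preconditioned N2 embryos held 9.19 and 23.3 CPM. Its call was lost without N2 500 mM replicate 1 (adjusted p = 0.0585) and without lin-45 500 mM replicate 2 (adjusted p = 0.0592). F15E6.4 stood at 106 and 107 CPM in the N2 libraries and 53.97 and 34.2 CPM in the lin-45 libraries (log2 fold change -1.27 ± 0.26 SE, adjusted p = 0.032) and C54F6.6 at 131 and 118 CPM in the N2 libraries and 60.4 and 34.7 CPM in the lin-45 libraries (log2 fold change -1.39 ± 0.33 SE, adjusted p = 0.0444); both calls were lost without each of the 4 libraries, at 0.06 to 0.2. F29B9.1 and H28G03.5 fell by 1.95 ± 0.14 and 1.25 ± 0.10 SE, and their calls, like that of ppm-1, were firm.

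Most genes called on 500 mM NaCl were called in the same direction on 50 mM, where the strains differed at far more genes: 4921 higher and 3117 lower, or 33.2% and 21.1% of those tested and 54.3% together. The split on 50 mM depends on the scaling, with 3413 higher and 3867 lower by library size alone, and the median of all genes there was 0.16 by the trimmed mean and 0.03 by library size. Without N2 50 mM replicate 1 there were 2879 higher and 2309 lower on 50 mM. The 50 mM and 500 mM comparisons share no library. Of the 717 genes higher on 500 mM, 567 (79.1%) were higher on 50 mM, which is 11.5% of the 4921, and 18 were lower. Of the 244 genes lower on 500 mM, 167 (68.4%) were lower on 50 mM, 5.36% of the 3117, and 21 were higher. The 717 had a median difference of 0.92 on 500 mM and 0.82 on 50 mM, and the 244 one of -0.51 and -0.60. Across the 961 genes the 2 differences had a Pearson correlation of 0.778, and across all 14802 genes 0.483; genes are not independent replicates, and these values are descriptions.

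**Figure D5:**
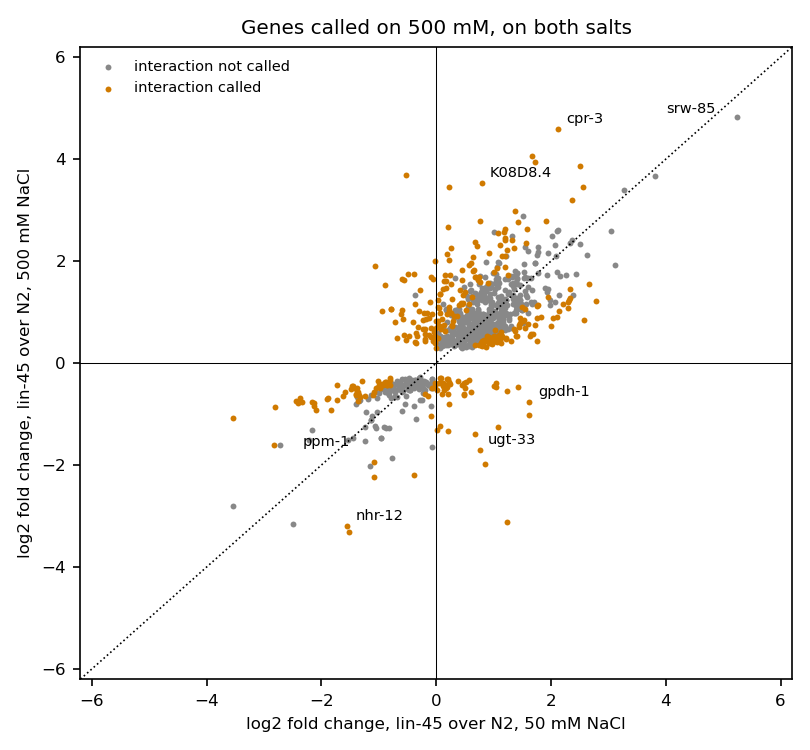
Difference between lin-45 and N2 on 500 mM NaCl (vertical axis) against that on 50 mM NaCl (horizontal axis), both as log2 fold changes, for 949 of the 961 genes called on 500 mM. Orange marks genes whose difference changed with salt and the dotted line equal differences; the other 12 have at most 3 counts in a group, and most points lie in the quadrants where both differences have the same sign.

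The strain difference itself changed with salt, by the interaction test, for 220 (30.7%) of the 717 higher and 101 (41.4%) of the 244 lower genes, beside 26.4% of all genes. In 143 of the 220 and 53 of the 101 the change had the same sign as the difference on 500 mM. These include genes with an opposite difference on 50 mM, whatever its size. The 3912 genes with such a change in all were 787 without N2 50 mM replicate 1, 2125 without N2 50 mM replicate 2 and 1890 without lin-45 50 mM replicate 1. They were 2479 and 1110 without N2 500 mM replicates 1 and 2, and 1675 and 1803 without lin-45 500 mM replicates 1 and 2. Genes whose difference on 500 mM was larger in the same direction included K08D8.4 (change 2.73 ± 0.21 SE, adjusted p = 0.0014), hsp-17 (0.82 ± 0.19 SE, adjusted p = 0.0188) and col-147 (1.18 ± 0.21 SE, adjusted p = 0.00901). pqn-60, named after its values were seen, stood at 0.399 and 0.295 CPM in the N2 libraries and 5.99 and 5.88 CPM in the lin-45 libraries on 500 mM and at 7.80 and 8.53 CPM in N2 and 24.7 and 27.4 CPM in lin-45 on 50 mM (change 2.39 ± 0.24 SE, adjusted p = 0.00232); it overlaps R11G11.6. Genes named here with opposite differences on the 2 salts included gpdh-1, ugt-33, let-767, R04B5.6 and nhr-23, for which the change was -2.39, -2.46, -1.78, -2.82 and -1.51. The transporter genes hmit-1.2 and hmit-1.1, without a call on 500 mM, were higher in the mutant there and lower on 50 mM (changes of 1.86 and 1.36). For ppm-1 the change was -0.01 ± 0.09 SE (adjusted p = 0.934), and for srw-85 -0.41 ± 0.34 SE (adjusted p = 0.389).

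By nuclear chromosome, the share of tested genes called higher ran from 3.15% on chromosome I to 7.26% on chromosome V, and the share called lower from 1.3% on chromosome II to 2.03% on chromosome X. None of the 13 mitochondrial genes tested was called.

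The preconditioned N2 embryos shared the salt of the mutant embryos, and their comparison with unconditioned N2 embryos uses the same N2 500 mM libraries, so only levels are set side by side. For srw-85 they held 0.855 and 0.996 CPM and for cpr-3 2.32 and 2.46 CPM, below both mutant libraries in each case. For col-103 they held 116 and 172 CPM against 47.8 and 47.9 CPM in unconditioned N2 and 247 and 233 CPM in lin-45. For hsp-17 the values were 14.1 and 19.5 CPM, 14.1 and 13.4 CPM and 51.7 and 48.8 CPM in the same order, and for prg-1 66.2 and 61.7 CPM, 44.5 and 44.2 CPM and 93.4 and 99.95 CPM. For gpdh-2 they were 251 and 272 CPM, 318 and 352 CPM and 363 and 332 CPM.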

How the data were processed

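Poly(A)-selected, paired-end RNA-seq of whole embryos was deposited by the authors as 1 table over all 10 libraries. Per the submitters' processing notes, the tools named are BWA 0.6.1, RSEM 1.2.15, bedtools 2.25.0 and DESeq 1.10.1, with genome build ce10. Neither the gene annotation nor the use of strand is named in the files and labels at hand. The deposited expected counts per gene, estimates that need not be whole (59.9% of the values above 0 were whole), were rounded and used for all tests. The FPKM and log2 FPKM values that the authors deposited beside them were not used.

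The 10 libraries entered a single edgeR 4.0.16 quasi-likelihood fit in R 4.3.3 with the 5 groups of the labels as terms, trimmed mean scaling, and genes with at least 1 CPM in at least 2 libraries. The fit had 5 residual degrees of freedom, and the common dispersion of 0.0173 corresponds to a coefficient of variation of 13.1%. P-values were adjusted by the Benjamini-Hochberg method over 14802 genes, with a threshold of 0.05. SE is the log2 fold change over the square root of F. Alternatives, 20 in number, changed the scaling, the filter, the rounding, the tool (DESeq2 1.42.0), the samples fitted and the replicate block, or left out 1 library. The fits were tested on simulated data, with 50 changed genes for each size of change. The share recovered was 30% at 1.5-fold, 66% at 2-fold, 94% at 4-fold and 58% at 0.5-fold, so small differences can be missed. Limits for genes with few counts use 3 counts over the group, and intervals cover counting error only.

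Genes named are lin-45, gpdh-1 and gpdh-2, the 15 highest and 15 lowest differences among called genes whose higher group averaged 10 CPM or more with no overlap of libraries, up to 4 called members of each list by p, all members of lists with at most 13 measured, genes lacking in every library of a strain, and the interaction extremes; not all are printed. Members and lists were chosen with earlier results of these data known.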

Additional observations from a re-analysis of the deposited data

Results flagged for a closer look

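The text above gives values for 90 genes called on 500 mM NaCl and 15 without a call. For 41 of these genes the strain difference on 500 mM NaCl was not the one found on 50 mM NaCl, by the interaction test of edgeR over all 10 libraries at an adjusted p under 0.05. Over all 14802 genes tested, 3912 (26.4%) passed it. Interaction extremes were among the rules for naming genes, so the 41 cannot be read against that share. The values below are the log2 difference between lin-45 and N2 on 500 mM minus that on 50 mM, with adjusted p of 0.0014 to 0.0466, and no explanation is offered.

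The difference was more positive on 500 mM for the protease gene cpr-3 (2.46), for K08D8.4 (2.73), B0024.4 (0.89) and pqn-60 (2.39), for clc-11 (1.26), irg-8 (1.68) and nas-9 (1.11). The same held for the F-box genes fbxa-74 (2.01), fbxa-192 (1.22) and fbxa-60 (1.02), the P450 gene cyp-14A4 (1.34), the lectin gene clec-41 (0.92) and the Argonaute gene csr-1 (0.55). In the epidermis and its matrix it held for col-147 (1.18), dpy-7 (1.62), lpr-1 (1.34) and cutl-9 (1.01), and among osmotic response genes for osr-1 (2.41), osm-8 (2.34), hmit-1.2 (1.86) and hmit-1.1 (1.36). The heat shock genes hsp-12.1 (1.41) and hsp-17 (0.82) and the Wnt pathway genes lit-1 (0.53) and cwn-2 (0.49) complete this set.

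The difference was more negative on 500 mM for the glycerol genes gpdh-1 (-2.39), gpdh-2 (-1.105) and pgph-2 (-0.85), and for nhr-12 (-1.65) and its neighbours R04B5.6 (-2.82) and R04B5.5 (-1.296). It was also more negative for ugt-33 (-2.46), let-767 (-1.78), clec-209 (-1.80), nhr-23 (-1.51), ins-27 (-1.57) and nlp-27 (-1.13). C54F6.6 (-2.06), F29B9.1 (-0.86), the chaperone gene hsp-1 (-0.49) and the ribosomal gene rps-15 (-0.49) are the others.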

How the results depend on the processing

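The count of called genes was the value that moved most. Fitted on the 4 libraries compared alone, 1638 genes were higher and 1259 lower. Without the preconditioned group, an alternative chosen after seeing the data, 1468 were higher and 707 lower. Leaving out 1 library at a time gave 209 to 1569 higher and 20 to 639 lower on 500 mM NaCl, 5188 to 8568 called on 50 mM and 787 to 5291 interaction calls. The preconditioned against unconditioned N2 comparison, whose counts are not used above, ran from 1430 to 4260 over those fits and was 1359 on its own libraries. The other scalings, filters, DESeq2 and counts left unrounded gave 717 to 890 higher and 246 to 348 lower; the cause of the movements was not tested.

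The labels do not say whether replicate numbers pair the libraries. The deviations of same-numbered libraries had correlations of -0.297 to 0.124 between groups, which cannot show how the libraries were prepared. With a replicate block 557 genes were higher and 103 lower. Among the called genes named above, 54 of 90 kept their call under all alternatives; of 15 genes given with values but no call, 4 never passed and 11 passed in at least 1. Without 1 library, medians moved by over 1.5 times for many lists. Examples are glutathione S-transferases (0.078 to 0.29), C-type lectins (0.036 to 0.24), col genes (0.15 to 0.36) and maternal RNA regulators (0.18 to 0.50). Library size alone moved the 50 mM split from 61.2% to 46.9% higher and the interaction split from 46% to 71%, but on 500 mM the median over genes was 0.0017 to 0.00913 under the 4 scalings. Squared differences between replicates averaged 8.71 to 42.6 times what counting error alone gives (chi-square per gene). How far depth and the number of libraries limit genes of different levels was not tested.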
